A study of Homo sapiens with 3 samples.

Results

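The genes described here are the hepatic carriers of bile acids and organic anions together with the pair of nuclear receptors that govern them. They were chosen by name, as 4 uptake carriers (SLC10A1, SLCO1B1, SLCO1B3 and SLCO2B1), 4 exporters (ABCB11, ABCC2, ABCG2 and ABCB4) and 2 nuclear receptors (NR1H4, which encodes FXR, and NR0B2, which encodes SHP), and they make up 10 of the 19736 genes that could be named on the array. Each was found through the RefSeq transcript that its probe was designed against, and each had 1 probe printed as 1 spot. Huh7 is an established human hepatoma cell line. Huh7 cells were left untreated or were given chlorogenic acid (CA), a plant polyphenol ester of caffeic and quinic acid, at 50 μM or 100 μM for 24 h. The methods of the study name the solvent DMSO as the vehicle for CA, whereas the label of the untreated sample gives no treatment. RNA of each group was hybridised to 1 one-colour Agilent whole human genome array, so there were 3 arrays, 1 per group, and no replicate.

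Hepatocytes take up bile acids and other organic anions from blood at the basolateral membrane and secrete them into bile across the canalicular membrane. NTCP (SLC10A1) couples the uptake of conjugated bile acids to sodium, while the OATPs (SLCO genes) carry a wide range of organic anions, drugs and conjugates without sodium. BSEP (ABCB11) pumps bile salts into bile, MRP2 (ABCC2) exports glucuronide and glutathione conjugates, BCRP (ABCG2) exports sulfated conjugates and many drugs, and MDR3 (ABCB4) moves phosphatidylcholine to the outer leaflet of the canalicular membrane. FXR is the receptor that bile acids activate, and SHP is a repressor that FXR induces and that in turn limits bile acid synthesis.

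Short stretches of promoter sequence are shown for 2 of the uptake carriers, since the elements they hold are of the kind through which liver receptors are known to act on such genes. RefSeq promoter windows (250 bases before to 50 bases after a transcript start, build GRCh38.p14) were at hand for 8 of the 10 genes, in 13 windows. Both motifs were kept after these windows had been scanned with several other patterns, so their presence is a selected description and nothing was drawn from it. They were CAAAGTCCA, a site of HNF4, and GGNCANTGNCC, an inverted repeat of the kind that FXR binds, and both were searched on both strands. CAAAGTCCA occurred in 0.384% of all 35116 windows and GGNCANTGNCC in 0.937%, and each was found in 1 of the 13 windows. Capitals mark the match, and each stretch runs 5′ to 3′ on the plus strand, which is that of the gene. The SLCO1B3 stretch, with the FXR repeat, lies at chr12:20810613-20810642 and that of SLCO2B1, in which the HNF4 site is read on the opposite strand, at chr11:75159752-75159781.
SLCO1B3: tgtttgcctaGGACAATGACCtaataagat
SLCO2B1: ggcacaggctgTGGACTTTGccctccacaa

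The arrays held 43118 gene spots each, of which 70.4% (untreated), 71.1% (CA 50 μM) and 70.9% (CA 100 μM) were well above background, and the 75th percentile of the processed signal was 1059, 1207 and 1249 intensity units. On the CA 100 μM array 5.71% of the gene spots lay in areas with runs of disturbed signal, against 0.139% on the untreated and 0.0881% on the CA 50 μM array. The spots of ABCB4 and NR0B2 on the CA 100 μM array lay in such an area. Of 10 hepatocyte markers, 9 had a probe well above background on all 3 arrays, and the summed signal of those 9 over the 75th percentile was 376 in untreated cells, 335 with 50 μM CA and 311 with 100 μM CA; TF was left out, since it had no value without outlier flags on the untreated and CA 50 μM arrays. All 6 cholangiocyte markers were detected as well, with a summed signal of 16.3, 13.6 and 14.3, all 3 endothelial markers with sums of 0.753, 0.902 and 0.831, and all 3 leukocyte markers with sums of 0.714, 0.846 and 0.639. Of 4 stellate or fibroblast markers 2 were detected on all arrays, DCN was not well above background on any, and the sums were 0.429, 0.443 and 0.491. The last holds a COL1A1 spot in a disturbed area, and without COL1A1 the sums were 0.426, 0.441 and 0.449. SERPINA1, KRT19 and PTPRC also had a spot in a disturbed area on the CA 100 μM array. Without these genes the sums were 325, 282 and 261 for hepatocyte markers and 11.7, 10.2 and 10.3 for cholangiocyte markers. For leukocyte markers they were 0.457, 0.608 and 0.395. The brightest probes weigh most in such sums, ALB and AFP among the hepatocyte markers. By log2 ratio to untreated cells, 7 of the 9 hepatocyte markers were below 0 and 2 above it at each dose. Of the 6 cholangiocyte markers 4 were below 0 and 2 above it with 50 μM CA, from −0.91 for KRT7 to 0.40 for AQP1. With 100 μM CA 3 were below 0 and 3 above it. The part of these marker levels in the results was not tested.

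Of the 10 genes, 9 were well above background on all 3 arrays, and none of them differed by 2-fold or more in any comparison. With 1 array per group there was no test, and 2-fold served as a fixed rule of size. Over all probes, 1.07% of 22471 were at least 2-fold apart between CA 50 μM and untreated cells, 0.894% of 22267 between CA 100 μM and untreated cells, and 0.855% of 22453 between the doses, so a count of 0 among 9 is no result about these genes. The median log2 ratio of the 9 genes was −0.08 with 50 μM CA, where the median of all 14697 genes was −0.04, and −0.10 with 100 μM CA, where the median of all 14637 genes was −0.03. Both doses were compared with the same untreated array, so their ratios are given side by side and not as support for each other.

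The error beside each log2 ratio is the standard deviation (SD) between spots of the probes printed 10 times whose signal was nearest to that of the gene, 806 such probes being on the array. It covers printing and scanning only, not the spread between cultures, and its median was 0.064 in both comparisons with untreated cells. Different probes of the same gene differed by more: the median gap between the log2 ratios of a gene's brightest pair of probes was 0.227 with 50 μM CA (3266 genes) and 0.173 with 100 μM CA (3237 genes). By the spot SD alone, 4 of 9 genes lay more than 2 SDs from 0 with 50 μM CA (SLCO2B1, ABCC2, ABCG2 and ABCB4) and 4 of 9 with 100 μM CA (SLCO2B1, ABCB4, NR1H4 and NR0B2). The 25th and 75th percentiles of all genes were −0.19 and 0.15 with 50 μM CA, and −0.14 and 0.08 with 100 μM CA. Many genes on the array thus lie as far from 0. The share of all genes past 2 spot SDs was not counted, so these counts are no result about the 9 genes.

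**Figure D1:**
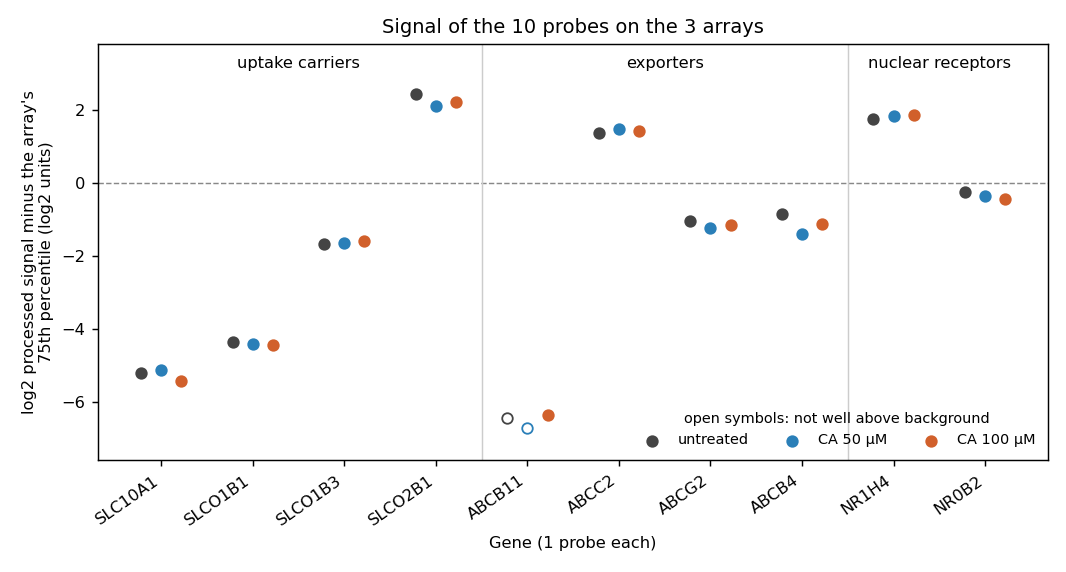
Log2 processed signal minus the 75th percentile of its array (vertical axis, log2 units) for the probe of each gene (horizontal axis) on each of the 3 arrays, 1 point per array; open symbols were not well above background. The 3 points of each gene lie close together, ABCB11 sits near the detection limit, and heights of different probes cannot be compared.

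Among the uptake carriers SLCO2B1 was the one that was lower in both treated samples by more than 2 spot SDs. SLCO2B1, whose product OATP2B1 carries steroid sulfates and drugs, had a processed signal of 5684 in untreated cells, 5187 with 50 μM CA and 5839 with 100 μM CA. After scaling to the 75th percentile of each array, the untreated level was the highest of the 3. The log2 ratio was −0.32 with 50 μM CA (spot SD 0.049), or 0.800 of the untreated level, and −0.20 with 100 μM CA (spot SD 0.050), 12.9% lower. Of all probes, 10.3% were at or below the first value and 17.8% at or below the second. Among the 2000 probes of most similar signal, the range from the 5th to the 95th percentile was −0.35 to 0.32 with 50 μM CA, which holds the SLCO2B1 value. The median of those probes was −0.08. Under the other ways of processing the SLCO2B1 value with 50 μM CA ran from −0.37 with median centring to −0.25 with cyclic loess.

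SLC10A1, the sodium-dependent bile acid carrier NTCP, gave a faint signal of 28.8 in untreated cells, 34.6 with 50 μM CA and 29.1 with 100 μM CA. These were 2.36, 2.68 and 1.96 times the lowest probe signal called well above background on the same array. The log2 ratio was 0.07 with 50 μM CA (spot SD 0.199) and −0.22 with 100 μM CA (spot SD 0.190), both within 2 spot SDs of 0. SLCO1B1, which encodes the liver carrier OATP1B1, was faint as well, at 52.0, 56.2 and 57.7 in the order untreated, CA 50 μM and CA 100 μM. Its log2 ratio was −0.08 with 50 μM CA (spot SD 0.139) and −0.09 with 100 μM CA (spot SD 0.141). SLCO1B3, which encodes OATP1B3, the close paralogue of OATP1B1, gave 334.3, 384.0 and 410.1. Its log2 ratio was 0.01 with 50 μM CA (spot SD 0.072) and 0.06 with 100 μM CA (spot SD 0.068). For SLCO1B1 and SLCO1B3, which share much of their sequence, the specificity of the probes was not tested. The median over the 4 uptake carriers was −0.03 with 50 μM CA and −0.14 with 100 μM CA.

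**Figure D2:**
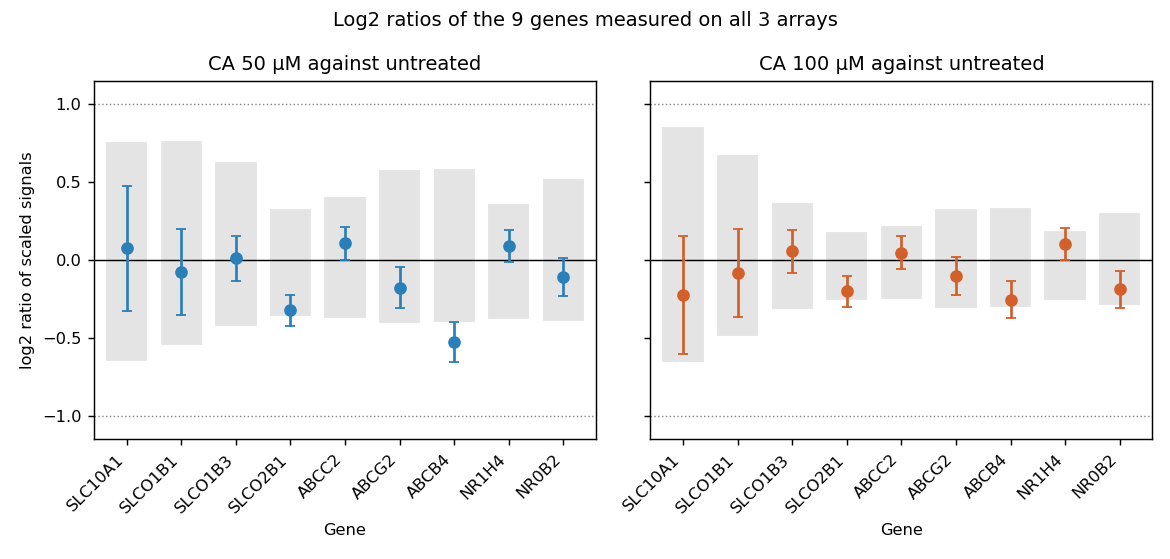
Log2 ratio of scaled signals (vertical axis) against untreated cells with 50 μM CA (left) and CA 100 μM (right) for the 9 genes measured on all 3 arrays; bars are 2 spot SDs either way, grey boxes run from the 5th to the 95th percentile of the 2000 probes of most similar signal, and dotted lines mark 2-fold. ABCB4 with 50 μM CA, at −0.52, is the only point outside its box in either panel; each box leaves out 5% of the probes at each end by construction.

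ABCB4 had the lowest ratio of the 9 genes with 50 μM CA under every way of processing tried. With 100 μM CA that order depended on the processing: SLC10A1 was lower in the deposited log2 table and after quantile normalization, at −0.33 in both, and SLCO2B1 under a background correction fitted on all spots, at −0.45 against −0.04 for ABCB4. Its probe, for the phospholipid floppase MDR3, gave 580.3 in untreated cells, 459.9 with 50 μM CA and 573.9 with 100 μM CA. Once scaled, the untreated level was the highest and the CA 50 μM level the lowest. The log2 ratio was −0.52 with 50 μM CA (spot SD 0.065), 30.5% lower, and 2.98% of all probes were at or below that value. It lay below the 5th percentile of the probes of similar signal, which was −0.39, and it was the only one of the 9 genes to do so. Such a range leaves out 5% of the probes at each end by construction, so 1 gene of 9 outside it is no result by itself. At CA 100 μM the log2 ratio was −0.25 (spot SD 0.060), 16.1% lower, inside the same range of −0.30 to 0.33. Between the doses ABCB4 was 0.27 higher on the log2 scale with 100 μM CA (spot SD 0.057), above the 95th percentile of 0.24. This ratio rests on the same CA 50 μM spot as the −0.52 against untreated cells, so it is not a separate departure. The value with 100 μM CA comes from a spot in a disturbed area, and without those areas no ratio with 100 μM CA remained.

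ABCC2, the conjugate exporter MRP2, gave 2746 in untreated cells, 3374 with 50 μM CA and 3348 with 100 μM CA. Its log2 ratio was 0.11 with 50 μM CA (spot SD 0.052) and 0.05 with 100 μM CA (spot SD 0.053). ABCG2, the exporter BCRP, gave 511.2, 515.6 and 562.6, and its log2 ratio was −0.18 with 50 μM CA (spot SD 0.065) and −0.10 with 100 μM CA (spot SD 0.061). Both genes stayed inside the range of probes of similar signal at both doses. ABCB11, the bile salt export pump, was at the edge of detection. Its signal was 12.1 in untreated cells, 11.6 with 50 μM CA and 15.2 with 100 μM CA, and only the last was well above background. That gives a bound, computed as the CA 100 μM level over the lowest signal called well above background on the dimmer array or the probe's own signal there, whichever was higher. For 100 μM CA against untreated cells the ABCB11 bound was 1.05-fold. Against 50 μM CA the bound was 1.101-fold with the lowest single spot called well above background as the limit, and 1.17-fold with the lowest probe, whose mean log2 level on that array was below that of any called spot. Both bounds leave out the spread between spots. The CA 100 μM spot was 1.02 times the lowest probe signal called well above background on its array, so no rise can be read from either bound. The untreated ABCB11 spot also carried a flag on its local background. Over the 3 exporters with ratios the median was −0.18 with 50 μM CA and −0.10 with 100 μM CA.

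NR1H4, the bile acid receptor FXR, was bright on all arrays, at 3560 in untreated cells, 4326 with 50 μM CA and 4510 with 100 μM CA. Its log2 ratio was 0.09 with 50 μM CA (spot SD 0.052) and 0.10 with 100 μM CA (spot SD 0.050). Between the doses it differed by 0.01, less than the spot SD of 0.051. NR0B2, the repressor SHP, gave 882.1, 934.0 and 912.9. Its log2 ratio was −0.11 with 50 μM CA (spot SD 0.061) and −0.19 with 100 μM CA (spot SD 0.059), the latter from a spot in a disturbed area. Neither receptor left the range of probes of similar signal.

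**Figure D3:**
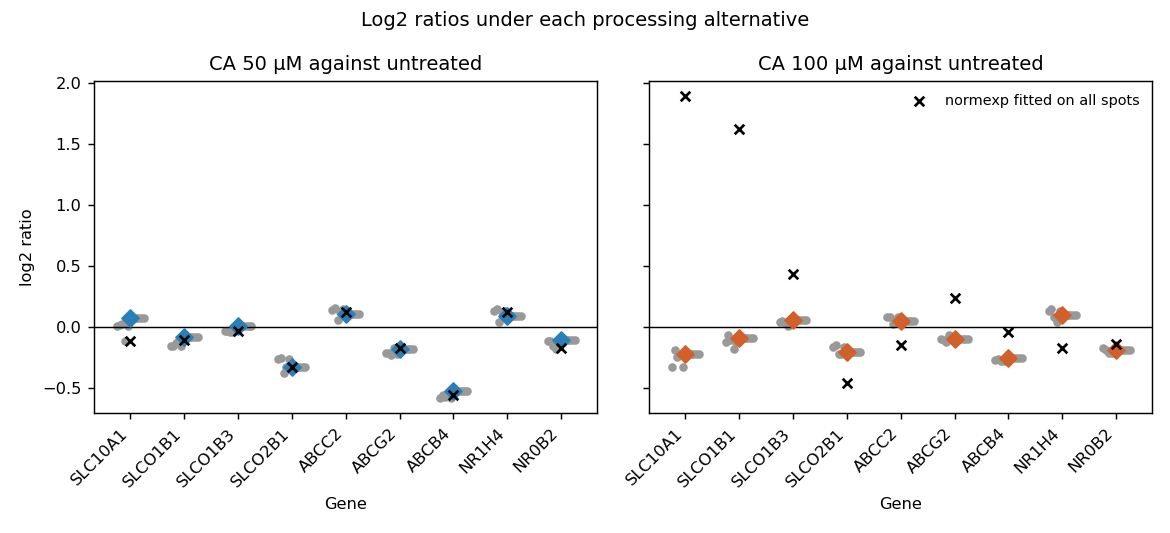
Log2 ratio against untreated cells (vertical axis) with 50 μM CA (left) and CA 100 μM (right) for each of the 9 genes; diamonds are the values given in the text, grey points the values under the other ways of processing, and crosses a normexp background correction fitted on all spots. At CA 100 μM the crosses of SLC10A1 and SLCO1B1 stand at 1.89 and 1.62, apart from all other points.

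The background correction moved the CA 100 μM values of the faint carriers. Normexp, a model that splits each spot's signal into background and true signal, was planned on all spots of each array. Fitted so, it gave log2 ratios of 1.89 for SLC10A1 and 1.62 for SLCO1B1 with 100 μM CA, and 7849 of 22267 probes on the whole array were at least 2-fold higher. On the CA 100 μM array 6 spots had a local background above their own signal, up to 49010 intensity units, and all 6 carried a background flag; the fitted background mean was −344, against 17.5 on the untreated and 19.4 on the CA 50 μM array. A second fit that left out spots with a background flag was added after these values had been seen. Its fitted mean on the CA 100 μM array was 20.7, and it gave −0.23 for SLC10A1 and −0.18 for SLCO1B1.

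The wider bile acid pathway was described with 4 lists of 60 genes in all. At CA 50 μM 50 of the 60 could be measured, 1 was at least 2-fold changed and the median log2 ratio was −0.10, and 0.973% of all genes were at least 2-fold changed by their brightest probe. At CA 100 μM 51 were measured, 0 were at least 2-fold changed and the median was −0.03, and the rate over all genes was 0.656%. The 1 gene was FGFR4, the receptor through which the gut hormone FGF19 lowers bile acid synthesis. FGFR4 gave 177.0 in untreated cells, 409.5 with 50 μM CA and 296.6 with 100 μM CA, a log2 ratio of 1.02 with 50 μM CA (spot SD 0.074) and 0.51 with 100 μM CA. The first value lay close to the 2-fold line and fell short of it under several other ways of processing.

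Of 17 receptors and regulators 16 were measured, and their median was −0.06 at both doses. CEBPA, a liver transcription factor, was the next highest with 50 μM CA, at 0.41, and stood at 0.24 with 100 μM CA. FGF19 had a log2 ratio of 0.30 with 50 μM CA and 0.14 with 100 μM CA. NR5A2 (LRH-1), a driver of bile acid synthesis genes, was −0.39 and −0.22 by its brightest probe, while its dimmer probe gave 0.06 and 0.09. HNF4A was well above background with 50 μM CA alone, with signals of 9.4, 21.8 and 15.5. Its bound for 50 μM CA against untreated cells, computed as for ABCB11, was 1.57-fold. The bound leaves out the spread between spots. The probe also passed the call only on the array where it was brightest, so the bound is not read as a rise.

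Of 12 other exporters, 11 were measured with 50 μM CA with a median of −0.19 and 12 with 100 μM CA with a median of −0.05. SLC51A and SLC51B form the basolateral bile acid exporter OSTα/β. SLC51A was −0.40 at both doses, and SLC51B was −0.19 with 50 μM CA and −0.07 with 100 μM CA. ATP8B1, a phospholipid flippase of the canalicular membrane, was −0.35 and −0.16. ABCC1 (MRP1) was highest, at 0.42 and 0.23, followed with 50 μM CA by SLC47A1, a cation exporter, at 0.20. ABCC3 (MRP3) was −0.22 and −0.18, and ABCC4 (MRP4) was 0.07 and 0.18.

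Of 14 other uptake carriers 10 were measured, with a median of −0.01 with 50 μM CA and −0.06 with 100 μM CA. SLCO3A1 was highest with 50 μM CA, at 0.61, and was 0.16 with 100 μM CA, but its second probe was well above background in untreated cells alone. That probe gave 20.3, 8.2 and 11.6 in the order untreated, CA 50 μM and CA 100 μM, so it was brightest in untreated cells. SLCO1A2 followed at 0.16 and 0.03. SLC22A3, an organic cation carrier, was lowest at −0.40 and −0.52, and SLC10A3 was −0.31 and −0.03. SLC10A2, the intestinal bile acid carrier, was not well above background on any array.

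Of 17 genes of bile acid synthesis and conjugation 13 were measured, with a median of −0.11 with 50 μM CA and −0.01 with 100 μM CA. CYP7A1, the rate-limiting enzyme of the classic pathway, and CYP8B1, which makes cholic acid, stayed under the detection call on all 3 arrays, as did CYP7B1 and CYP46A1. CYP27A1, which opens the alternative pathway, was bright and stood at −0.28 and −0.05. ACOX2, a peroxisomal oxidase of the side chain, was −0.31 and −0.09, and a spot of its probe lay in a disturbed area on the CA 100 μM array. HSD3B7 and AKR1C4 were highest with 50 μM CA, at 0.10 and 0.14. BAAT, which joins bile acids to glycine or taurine, was chosen after its values were seen: it was faint, at 16.5, 16.0 and 28.8, and had the highest ratio of the list with 100 μM CA, 0.56 (spot SD 0.190). That SD is the one shared by the faintest genes and may be too small for BAAT.

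**Figure D4:**
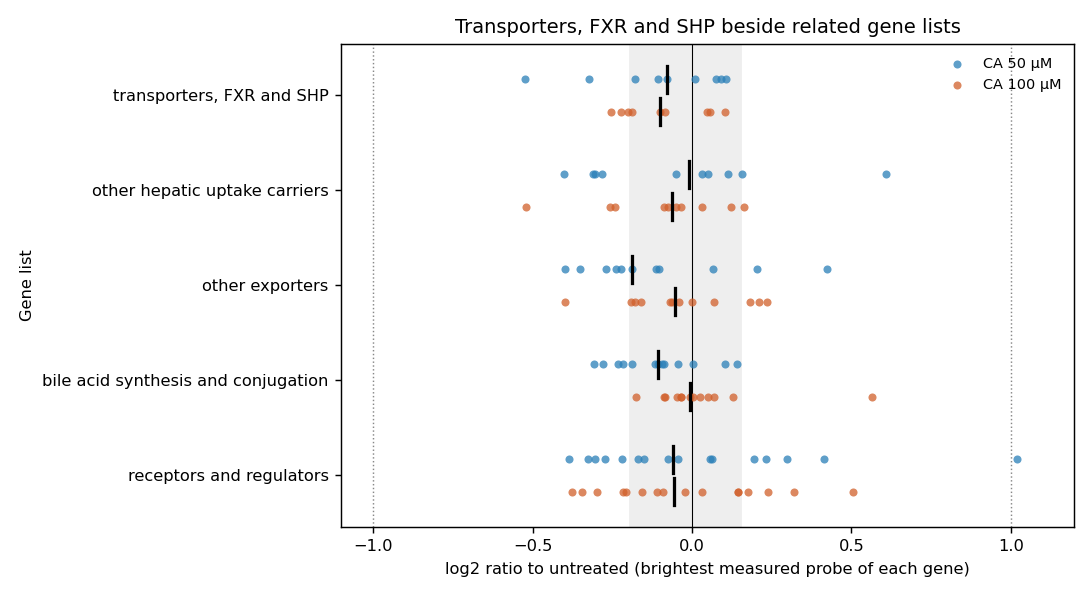
Log2 ratio to untreated cells (horizontal axis) for each measured gene of the transporters, FXR and SHP and of the 4 related lists (vertical axis), with 50 μM CA and CA 100 μM; short black bars are medians, the grey band runs from the 25th to the 75th percentile of all genes with 50 μM CA, and dotted lines mark 2-fold. FGFR4 at 1.02 is the only point past the 2-fold line.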

How the data were processed

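Spot intensity was deposited for 3 one-colour Agilent arrays, 1 each for untreated, CA 50 μM and CA 100 μM Huh7 cells. The authors' intensity values came from Agilent Feature Extraction 11.0.1.1, per the file headers, with background subtraction and detrending inside each array. A deposited log2 table of the same arrays, whose 3 columns share their median of 6.22 and upper quartile, served as an alternative; how it was made is not given in the sources used here, and its direction was taken from its match to the scanner values.

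Control spots and spots with outlier flags were left out, log2 signals were set against the 75th percentile of each array, and spots of 1 probe were averaged. A ratio was formed where, on each array compared, at least 50% of the spots of a probe passed the background call, and a gene was read by its brightest probe. Of 34127 gene probes, 25767 (75.5%) were named through RefSeq accessions without versions (GRCh38.p14). Named were the 10 genes, list genes at least 2-fold changed, the highest and lowest pair of each list at CA 50 μM, and a few pathway genes set by name, 1 of which is not reported here. The genes and lists were chosen with earlier results of these data known. With 1 array per group no test was possible, and the number of arrays limits the precision. The scripts were tested on simulated data. In all, 12 alternatives were planned and 1, the normexp fit without background-flagged spots, was added after the planned normexp fit had been seen. Normexp used the median spot and local background signals with an offset of 50. Python 3.11.15, numpy 2.4.6, pandas 2.3.3, R 4.3.3 and limma 3.58.1 were used.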

Additional observations from a re-analysis of the deposited data

How the results depend on the processing

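At CA 50 μM none of the 9 measured genes reached 2-fold under any of 12 other ways of processing, and 7 kept their sign, the exceptions being SLC10A1 and SLCO1B3. The planned normexp correction, fitted on all spots, put 2 of the genes at least 2-fold higher at CA 100 μM against untreated cells (SLC10A1 and SLCO1B1) and 2 at CA 100 μM against CA 50 μM, raised the median between the doses from 0.01 to 0.40, put 12 pathway genes past 2-fold at CA 100 μM, and left 4 of 9 genes with their sign. On that array 6 spots, all with a background flag, had a local background above their signal. The normexp fit without background-flagged spots, chosen after seeing that result, put none past 2-fold and gave a median of −0.18 in place of −0.10 at CA 100 μM against untreated cells. Under the 11 ways other than the all-spot fit, the 9 genes kept their sign at CA 100 μM wherever they had a value; ABCB4 and NR0B2 had none without the disturbed areas. Cyclic loess gave a median of 0.080 between the doses. The pathway count of 1 gene at CA 50 μM became 0 under quantile normalization, cyclic loess, median centring, both normexp fits and the deposited table, 2 with the filter on 1 array and 4 with no filter; at CA 100 μM it was 1 with no filter. The normexp fit without background-flagged spots kept 43584 of 44495 spots on the CA 100 μM array, and leaving out the 6 spots alone was not tried. For normexp, loess and the filters, the cause was not tested. The ABCB11 bound between the doses was 1.101-fold with the dimmest detected spot as the floor and 1.17-fold with the lowest probe. Signal over background limits SLC10A1, SLCO1B1 and ABCB11 most. No paired analysis was possible because each group had 1 array.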
